A study of Sus scrofa with 6 samples.

Results

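Annotated mRNA isoforms were chosen by their FPKM, which had to be 0 in every library of one muscle and above 0.1 in at least 2 of the 3 libraries of the other, and were collected from longissimus thoracis (LT), a muscle of the back, and semitendinosus (ST), a muscle of the hind limb. FPKM scales the fragments given to a transcript by its length and by the mapped fragments of the library. In total, 404 isoforms of 379 protein-coding genes met the rule, out of 28995 annotated mRNAs with FPKM above 0.1 in at least 1 library, 48415 annotated mRNAs listed and 72511 transcripts of all kinds. Of these, 250 isoforms of 240 genes were seen in ST and listed at 0 in LT (0.862% of the expressed annotated mRNAs), and 154 isoforms of 150 genes were seen in LT and listed at 0 in ST (0.531%). The isoforms were thus selected on their own FPKM, so their levels and their differences between the muscles are given as a description, with no test.

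The samples were LT and ST of 3 wild-type (WT) Min pigs, an indigenous Chinese breed, and the pigs had the same age, with no treatment given in the labels. The 6 libraries were made from total RNA after removal of rRNA, with 3 per muscle, and libraries with the same number came from the same pig. The study compared the muscles because they differ in meat quality and in intramuscular fat.

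Most mammalian genes give more than 1 mRNA. Alternative start sites, the choice of exons during splicing and alternative polyadenylation sites produce isoforms that can differ in the protein they encode or only in their untranslated ends. Skeletal muscle is known for this, since Z-disc, troponin and calcium-handling genes change their splicing with fibre type and development. Software that assigns short fragments to isoforms splits fragments of shared exons by estimation, so a fragment given to 1 isoform is taken from another of the same gene, and the FPKM values of the isoforms of a gene are not independent of each other.

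FPKM summed over 5 skeletal muscle markers lay between 15151 and 19251 in the LT libraries and between 9660 and 14904 in the ST libraries. Endothelial markers summed to 70.4 to 99.4 in LT and 152 to 221 in ST, smooth muscle and pericyte markers to 176 to 209 and 269 to 353, and immune markers to 69.1 to 75.4 and 77.2 to 104, so that these 4 lists did not overlap between the muscles. Sums of the adipocyte markers (69.5 to 200 and 59.8 to 152), the nerve markers (24.6 to 58.0 and 25.1 to 45) and the erythroid markers (675 to 1050 and 575 to 1016) overlapped. The median log2 fold change of the 5 skeletal muscle markers was -0.039. In such bulk tissue, fewer cells of a type and less RNA per cell cannot be told apart. Mitochondrial transcripts made up 5.36% to 8.16% of all FPKM in LT and 12.1% to 15.4% in ST. Their part in the results was not tested. The commonest step of FPKM times length in genes with a single transcript was taken as 1 read pair, and values on this scale are called read-pair equivalents. The step lay between 19.3 and 26.0 FPKM times bases, so a library with a smaller step was the deeper one.

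Only 56 of the 250 ST isoforms (22.4%) and 35 of the 154 LT isoforms (22.7%) were above 0.1 in all 3 libraries of their muscle. The others passed in 2 libraries alone, and 176 ST isoforms and 101 LT isoforms were listed at exactly 0 in the remaining library. In ST, 62 isoforms were at or under 0.1 in replicate 1, 75 in replicate 2 and 57 in replicate 3. The counts in LT were 41, 38 and 40. A further 781 isoforms were at 0 in LT and above 0.1 in a single ST library, and 542 were at 0 in ST and above 0.1 in a single LT library, so isoforms seen in 1 library of a muscle outnumbered those seen in 2 or 3. Leaving out any ST library reduced the ST isoforms to between 113 and 131, and leaving out any LT library raised them to between 448 and 474. The LT isoforms fell to between 73 and 76 without an LT library and rose to between 281 and 387 without an ST library. FPKM above 0.1 was still required in 2 libraries here. Leaving out a library of the isoform's own muscle could thus only lower a count, and leaving out one of the other muscle could only raise it.

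A zero in 1 library of the muscle rarely went with a low gene. For the 176 ST isoforms at 0 in 1 ST library, the gene total (FPKM summed over all transcripts of the gene) in that library was a median of 0.897 times the mean of the other 2 ST libraries, and it was at least 0.5 times that mean in 152 (86.4%). The median was 0.904 in LT, where 86 of 101 (85.1%) were at or above 0.5. In 21 ST and 18 LT isoforms, the isoform made up more than 90% of its gene in 1 library and was at 0 in another library of the same muscle. Libraries of 1 muscle thus often differed in the listed isoform without a loss of the gene.

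The isoforms were of low abundance. Their median FPKM, averaged over the 3 libraries of the muscle, was 0.554 in ST and 0.453 in LT, against 0.984 and 0.832 for all expressed annotated mRNAs. FPKM was above 1 for 82 ST and 46 LT isoforms and above 10 for 7 and 5. In the library where it was highest, a median ST isoform held 158 read-pair equivalents and a median LT isoform 129, while 9 ST and 6 LT isoforms held fewer than 10 there. The coefficient of variation within the muscle had a median of 90% in ST and 88.4% in LT. Had each isoform kept its share of the gene, 199 of the 250 ST isoforms and 126 of the 154 LT isoforms would have held at least 10 read-pair equivalents in every library of the other muscle.

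The isoforms nearest the threshold had their second highest value at 0.102 (IL7R, the interleukin 7 receptor) and 0.105 (SNX1, a sorting nexin of endosomes) in ST and at 0.102 (ENSSSCG00000033501) and 0.105 (PML, the organizer of nuclear bodies) in LT. Just outside lay isoforms of PDE1A (0.0994) and TIFA (0.0985) in ST and of POLD1 (0.0989) and CRTAC1 (0.0980) in LT.

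**Figure D1:**
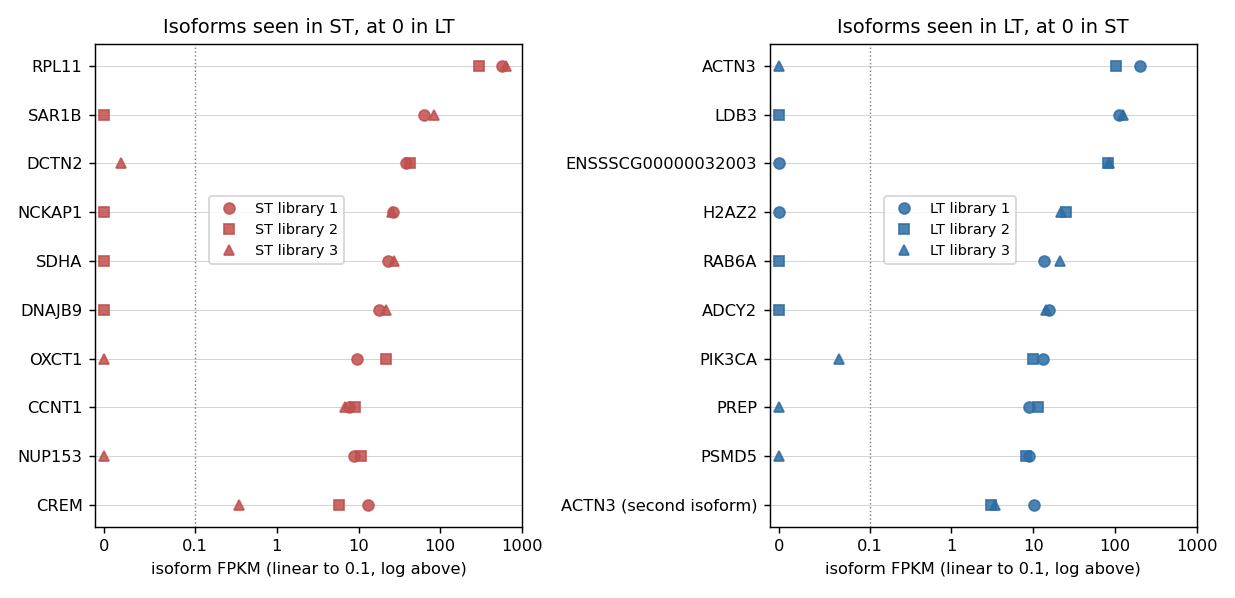
FPKM of the 10 isoforms with the highest mean in each muscle, 1 point per library on an axis that is linear up to 0.1 and logarithmic above, with the threshold of 0.1 dotted. RPL11, CCNT1 and CREM in ST and the second ACTN3 isoform in LT were above the threshold in all 3 libraries, while 7 of the 10 ST isoforms and 9 of the 10 LT isoforms had 1 library at or under it.

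Among the 10 most abundant ST isoforms, 3 were above 0.1 in all ST libraries. The highest belonged to RPL11, a protein of the large ribosomal subunit that also binds MDM2. Its isoform ENSSSCT00000045795, with 7 exons and 616 bases at chr6:81522726-81526928 on the plus strand (Sscrofa11.1), had FPKM of 562, 298 and 638 in ST and 0 in LT. ENSSSCT00000022802, which has the same ends, 6 exons and 619 bases, was at 358, 326 and 361 in LT and at 3.70, 13.4 and 5.21 in ST. The ST isoform thus carried 99.0%, 92.3% and 99.1% of the RPL11 total in ST, in place of a transcript that differs from it by 3 bases in length. The total was 366, 334 and 371 in LT against 567, 323 and 644 in ST, so the muscles overlapped (log2 fold change 0.46, SE 0.30, limma adjusted p = 0.423). An unannotated lncRNA on the opposite strand of RPL11, LNC_009470, was also at 0 in LT and at 7.31, 5.88 and 8.06 in ST.

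CCNT1 encodes cyclin T1, a subunit of the elongation factor P-TEFb, and its ST isoform was at 7.53, 8.96 and 6.82. CREM, the cAMP-responsive element modulator, had an isoform of 8 exons at 13, 5.76 and 0.341 in ST, an uneven set in which replicate 3 was far below the other libraries. The CREM total was 8.96, 7.01 and 5.03 in LT against 17.7, 27.8 and 9.45 in ST, higher in every ST library (log2 fold change 1.28, SE 0.39). It was not called by limma (adjusted p = 0.127) but passed with the pig as a block (adjusted p = 0.0355).

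Most of the other abundant ST isoforms were absent from 1 ST library. The isoform of SAR1B, the small GTPase that builds COPII vesicles, had 63.0, 0 and 84.8 in ST. The other SAR1B isoform, whose 3′ end lies 4880 bases further on, was at 41.7, 44.3 and 54.3 in LT and at 1.02, 58.3 and 0.900 in ST. ST replicate 2 thus had the isoform of the LT libraries, while replicates 1 and 3 had the other, and the SAR1B total was 41.7 to 54.3 in LT and 58.3 to 85.7 in ST (adjusted p = 0.181). The isoform of DNAJB9, a co-chaperone of the endoplasmic reticulum, made up all of the gene in ST replicates 1 and 3 (17.7 and 21.5) and was at 0 in replicate 2. The DNAJB9 total was 3.32, 3.46 and 4.14 in LT against 17.7, 7.26 and 21.5 in ST (log2 fold change 1.93, SE 0.38, adjusted p = 0.0628, 0.0261 with the pig as a block and 0.00414 without ST replicate 2). It too was lower in ST replicate 2 than in the other ST libraries. The isoforms of NCKAP1, a subunit of the WAVE actin regulator, and SDHA, the flavoprotein of respiratory complex II, were at 26.5 and 22.6 in replicate 1, at 25.9 and 27.2 in replicate 3 and at 0 in replicate 2. OXCT1, which starts the use of ketone bodies, and NUP153, a nuclear pore protein, lacked their isoform in ST replicate 3 instead, with 9.52 and 21.9 for OXCT1 and 8.77 and 10.8 for NUP153 in replicates 1 and 2. For DCTN2, a dynactin subunit, the ST isoform was at 37.6, 42.1 and 0.0183, and the total did not differ by the test (log2 fold change 0.018, SE 0.18, adjusted p = 0.966).

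The LT isoforms were led by genes of the Z-disc. ACTN3, the alpha-actinin of fast fibres, had an isoform of 20 exons at 205, 104 and 0 in LT and another of 23 exons at 10.3, 3.04 and 3.46. Together they carried a small part of the gene, with mean shares of 13.5% and 0.802%. The ACTN3 total was 810, 684 and 503.8 in LT against 56.3, 375 and 10.4 in ST, lower in every ST library, and it was not called by limma (log2 fold change -3.43, SE 1.09, adjusted p = 0.139). Without ST replicate 2, the highest ST library, it was called (log2 fold change -4.75, adjusted p = 0.0133), and without ST replicate 3 the change was -2.17. LDB3, a PDZ and LIM protein that binds alpha-actinin, had an isoform of 15 exons at 112, 0 and 126 in LT, and its total was 311 to 585 in LT and 307 to 471 in ST (adjusted p = 0.810).

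An isoform of ENSSSCG00000032003, a gene without a symbol in the tables used, was at 0, 83.1 and 85.7 in LT. H2AZ2, a histone H2A variant, had an isoform at 0, 25.2 and 22.0 there, so LT replicate 1 lacked both. The H2AZ2 total was 21.8, 40.0 and 34.5 in LT against 13.6, 13.3 and 11.8 in ST (log2 fold change -1.26, SE 0.24, adjusted p = 0.0593, 0.0306 with the pig as a block and 0.0424 without ST replicate 2). RAB6A, a GTPase of the Golgi, had an isoform at 13.4, 0 and 21.6 in LT.

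ADCY2, an adenylate cyclase, showed the alternation most plainly. Its LT isoform of 23 exons and 4598 bases was at 15.5, 0 and 14.3, and an isoform with the same ends, 24 exons and 4607 bases was at 0, 13.7 and 0 in LT and at 20.3, 18.9 and 16.1 in ST. No library held both, LT replicate 2 had the ST form, and the ADCY2 total lay between 13.7 and 15.5 in LT and between 16.1 and 20.3 in ST (adjusted p = 0.284). In PSMD5, a chaperone of proteasome assembly, the LT isoform was at 8.98, 8.15 and 0, and the isoform of the ST libraries was at 20.1 in LT replicate 3. In PREP, prolyl endopeptidase, LT replicate 3 likewise lacked the LT isoform (8.78, 11.6 and 0), and PIK3CA, the catalytic subunit of phosphoinositide 3-kinase, had its LT isoform at 13.3, 9.94 and 0.0661. The totals of PREP (adjusted p = 0.958) and PIK3CA (adjusted p = 0.647) overlapped between the muscles.

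The share of the gene total carried by an isoform had a median of 18.5% in ST and 19.7% in LT, against 38.1% and 38.6% for all expressed annotated mRNAs in these muscles. These sets were not matched for isoform number. A transcript that is the only one annotated for its gene carries the whole gene, and such transcripts were 15.1% of the expressed mRNAs but 3.22% of the isoforms. An isoform carried more than 50% of its gene in 46 ST cases (18.4%) and 39 LT cases (25.3%), more than 90% in 11 and 12, and less than 10% in 81 and 39. The median share taken in each library alone had an SD of 1.56 percentage points over the 3 ST libraries and 1.18 over the 3 LT libraries. The smallest mean shares were 0.0494% in ST (ACTN2) and 0.0485% in LT (EIF4G2, a translation initiation factor).

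Where the gene total was above 1 FPKM in both muscles, the largest shares in ST belonged to RPL11 (96.8% ± 3.87, SD, n = 3), CCNT1 (74.0% ± 0.477), JAG1, a ligand of Notch receptors (73.3% ± 11.9), PIK3R3, a regulatory subunit of phosphoinositide 3-kinase (72.3% ± 35.7), and KDM4B, a histone H3 lysine demethylase (67.0% ± 1.43). In LT they belonged to MYH14, the heavy chain of non-muscle myosin IIC (99.9% ± 0.152), SNX8, a sorting nexin (78.0% ± 13.5), POLR3E, a subunit of RNA polymerase III (67.9% ± 4.38), ADCY2 and PSMD5. The shares of CCNT1, KDM4B and MYH14 were nearly the same in the 3 libraries. Those of PIK3R3 were not, at 97.1%, 88.3% and 31.4%.

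**Figure D2:**
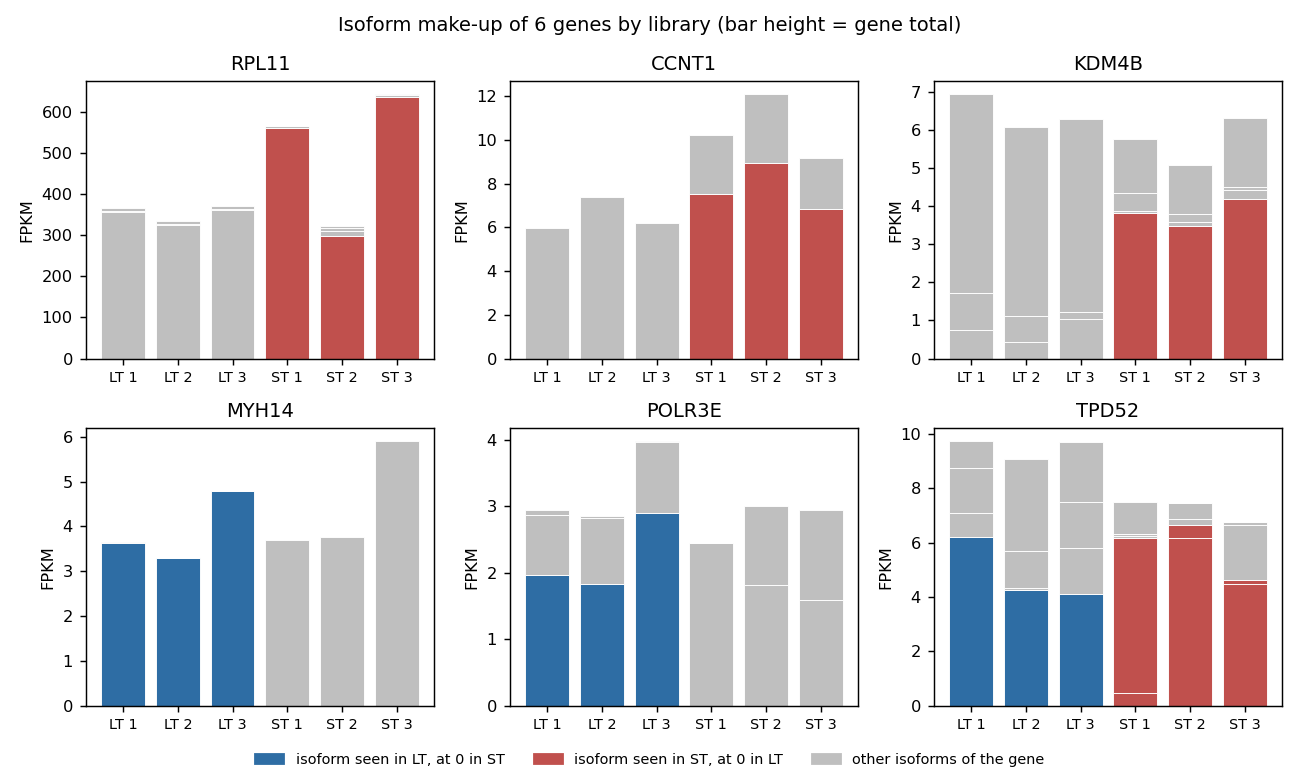
FPKM of each isoform, stacked by library, for 6 genes, with isoforms seen in ST alone in red, isoforms seen in LT alone in blue and all other isoforms in grey. The height of a bar is the gene total, which overlapped between the muscles for MYH14 (3.29 to 4.79 in LT, 3.69 to 5.90 in ST) and KDM4B (6.08 to 6.95 and 5.08 to 6.32), while the isoforms that filled it differed.

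MYH14 was the clearest case in LT. Its isoform ENSSSCT00000031995, with 42 exons and 6791 bases at chr6:55113520-55200752 on the plus strand, was at 3.64, 3.29 and 4.78 in LT and 0 in ST. ENSSSCT00000027619, with the same ends, 43 exons and 6890 bases, was at 0.0111, 0 and 0.00672 in LT against 3.69, 3.76 and 5.90 in ST. The sum of the isoforms other than the LT one rose in ST (log2 fold change 5.39, SE 0.27, adjusted p = 0.000731). That sum was above 0.1 FPKM in ST alone, so it had to differ and its p-value is a description only. The MYH14 total was 3.91 ± 0.781 in LT and 4.45 ± 1.26 in ST (SD, n = 3, log2 fold change 0.17, SE 0.25, adjusted p = 0.750). The pair thus differed by 1 exon and 99 bases, with the shorter form in LT and the longer in ST.

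KDM4B had an ST isoform of 24 exons and 5022 bases at chr2:73747647-73889841 on the minus strand, at 3.82, 3.49 and 4.19 in ST. The leading isoform of LT, with 25 exons and 4102 bases, was at 5.22, 4.95 and 5.08 in LT and 1.42, 1.27 and 1.80 in ST, so it was lower in every ST library without being lost. The sum of the KDM4B isoforms other than the ST one fell by 1.72 on the log2 scale (SE 0.19, adjusted p = 0.0162), against a total of 6.44 ± 0.452 in LT and 5.73 ± 0.624 in ST (log2 fold change -0.17, adjusted p = 0.608). This sum leaves out the isoform chosen for 0 in LT, so its fall is partly fixed by the choice and its p-value is a description.

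POLR3E had an LT isoform of 20 exons and 2844 bases, at chr3:23847829-23880914 on the minus strand, at 1.96, 1.84 and 2.90. Its longer isoform of 22 exons was at 0.909, 0.991 and 1.08 in LT and 2.45, 1.82 and 1.58 in ST, and another of 20 exons reached 1.19 and 1.36 in ST replicates 2 and 3. The sum of these other isoforms rose in ST (log2 fold change 1.36, SE 0.20, adjusted p = 0.0370), while the total was 3.26 ± 0.625 in LT and 2.80 ± 0.302 in ST (adjusted p = 0.629). For CCNT1 the sum of the other isoforms fell by 1.23 on the log2 scale (SE 0.19, adjusted p = 0.0418) and the total was higher in every ST library, at 5.99 to 7.37 in LT and 9.16 to 12.1 in ST (log2 fold change 0.68, adjusted p = 0.101). The sums of POLR3E and CCNT1 leave out the chosen isoform, which held most of the gene in its muscle, so their p-values are descriptions only.

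TPD52, the gene of tumor protein D52, held isoforms of both directions at comparable levels. ENSSSCT00000056357 started 24669 bases upstream of the leading ST isoform and was at 6.20, 4.27 and 4.12 in LT and 0 in ST. ENSSSCT00000038568 was at 0.463, 6.16 and 4.47 in ST and ENSSSCT00000042242 at 5.73, 0.482 and 0.161, so that ST replicate 1 had one form and replicates 2 and 3 the other. The ST forms have nearly the same ends (1 base apart at the start) and 7 exons each, with lengths of 3482 and 3360 bases. The TPD52 total was 9.08 to 9.74 in LT and 6.78 to 7.49 in ST, lower in every ST library (log2 fold change -0.39, SE 0.15, adjusted p = 0.199).

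In all, 11 genes held isoforms of both directions. Besides TPD52, those with the highest values were ACAD10, an acyl-CoA dehydrogenase family member, CLCC1, a chloride channel of the endoplasmic reticulum, DCAF11, a substrate receptor of a ubiquitin ligase, NARS2, the mitochondrial asparaginyl-tRNA synthetase, ROBO1, a guidance receptor, JAG1, NUP133, a nuclear pore protein, ACER3, a ceramidase, and SLC25A27, a mitochondrial carrier. TPD52, CLCC1, NUP133 and JAG1 had each of their isoforms above 0.1 in all 3 libraries of its muscle. In CLCC1 the ST form of 12 exons was at 0.725, 0.536 and 1.02 and the LT form of 11 exons, with the same ends, at 0.777, 0.72 and 1.03. In NUP133 the ST form of 27 exons was at 0.326, 0.531 and 0.184 and the LT form of 28 exons, again with the same ends, at 0.485, 0.369 and 0.269. These carried only 6% and 6.78% of CLCC1 and 11.2% and 11.3% of NUP133. JAG1 had an ST isoform at 6.01, 5.71 and 6.24, with 73.3% of the gene, and an LT isoform at 0.159, 0.405 and 0.736, with 7.89%. None of the totals of these 10 genes was called by limma (1 had an unadjusted p under 0.05), with log2 fold changes from -0.39 in TPD52 to 0.65 in JAG1.

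To see how the isoforms differ in structure, each was set against the leading isoform of its gene in the other muscle, which 241 ST and 144 LT isoforms had. Start and end were identical in 29 ST (12%) and 19 LT pairs (13.2%), against 6.08% of 14701 other expressed isoforms set against the leading isoform of their gene. For these others the leading isoform was taken over all 6 libraries, and leading isoforms were left out, so the pairings are not alike. The start lay more than 1000 bases away in 30.7% and 26.4% of the pairs, against 33.3%, and the end in 34.4% and 36.1%, against 43.0%. The exon number was lower than in the leading isoform in 129 ST and 72 LT pairs, the same in 42 and 28 and higher in 70 and 44, and it differed by 1 in 101 and 64. The isoforms seen in one muscle were shorter than the leading isoform in 171 ST and 96 LT pairs. The counts of exon number and length have no share over other expressed isoforms beside them. They are thus not shown to be particular to these isoforms. All these values are descriptions, since isoforms of a gene share exons and reads.

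The genes had more annotated isoforms than others. The median was 5 annotated transcripts in ST and 4.5 in LT, against 3 for all expressed annotated mRNAs, and only 13 of the 404 isoforms (3.22%, against 15.1%) were the single annotated transcript of their gene. The median length was 3273 and 3007 bases, against 3354, and the median exon number was 12 in both, against 11.

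The gene total was then compared between the muscles for genes with an isoform seen in one of them. The total includes the isoform, so it is not independent of the choice. In the comparison of ST with LT over 13994 protein-coding genes, limma called 100 (0.715%) at an adjusted p below 0.05 with a change of more than 1 on the log2 scale. Of the 240 genes of ST isoforms, 6 (2.50%) were called, all higher in ST (against 0.543% of all genes), and of the 150 genes of LT isoforms, 3 (2%) were called, all lower in ST (against 0.172%). Of these 9 genes, LIMD2, GAL3ST1, ZIC4 and FGG had totals at or under 0.1 FPKM in every library of the muscle without the isoform, so their totals had to differ and are given without a test. The same held for 12 of the 240 ST genes and 13 of the 150 LT genes. In the remaining genes, 4 of 228 (1.75%) were called in ST and 1 of 137 (0.730%) in LT. The median log2 fold change was 0.36 for the ST genes and -0.017 for the LT genes, against 0.17 over all genes, and it was within 1 of 0 in 191 ST genes (79.6%) and 124 LT genes (82.7%), against 91.4%. The libraries of the muscles did not overlap in 80 ST genes (33.3%) and 40 LT genes (26.7%), against 26.6% of all genes. In the genes above 0.1 in the other muscle the medians were 0.34 and 0.030, and 73 ST genes (32.0%) and 33 LT genes (24.1%) did not overlap. With the pig as a block, 31 ST genes (30 higher in ST) and 14 LT genes (11 lower in ST) were called, against 5.05% of all genes, with 3.72% higher and 1.33% lower in ST. Without ST replicate 2, 41 ST genes and 13 LT genes were called (54 in all, against 5.65% of all genes). Without any of the other 5 libraries 2 or 3 were called, of which 2 were among the 9. HOXA10, PIK3R3, DGKH, ACTN2 and ASPH were each called under 7 to 9 of the 16 settings tried. The PIK3R3 rise, counted among the 4 calls in the remaining ST genes, was fixed in part by the choice. The number of settings that called PIK3R3 thus shows no stability.

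**Figure D3:**
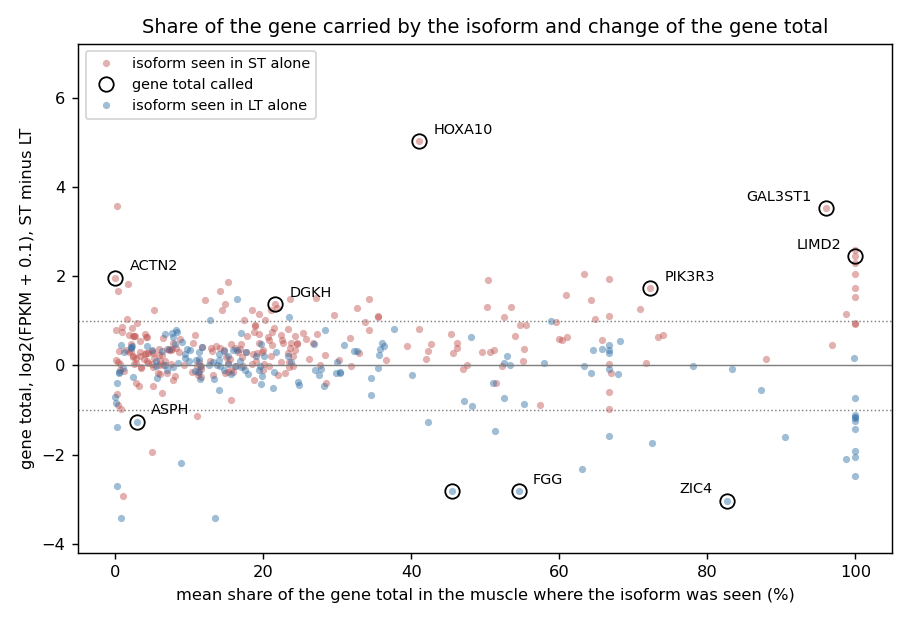
Mean share of the gene total carried by each of the 404 isoforms (x axis, percent) against the log2 fold change of the gene total (y axis, ST minus LT), with red for isoforms seen in ST and blue for isoforms seen in LT. Circles mark the 9 genes whose total was called (2 circles for FGG, which has 2 isoforms), most other totals lie between the dotted lines at -1 and 1, and the called genes run from 0.0494% of the total in ACTN2 to 100% in LIMD2.

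The 6 genes higher in ST carried very different shares in their isoform. HOXA10, a limb patterning factor, had an isoform of 3 exons at 3.08, 6.69 and 1.79 and a total of 0, 0.0900 and 0.836 in LT and 6.55, 13.7 and 6.54 in ST (adjusted p = 0.0391). GAL3ST1, which makes sulfatide, a myelin lipid, had 96.0% of its ST total in the isoform, at 1.12, 1.27 and 1.34. PIK3R3 had a total of 1.48, 1 and 1.69 in LT and 5.67, 4.22 and 4.52 in ST (log2 fold change 1.73, SE 0.25, adjusted p = 0.0355). Its chosen isoform, at 0 in LT by the rule, gave 5.50, 3.73 and 1.42 of this ST total. Of the others, ENSSSCT00000004324 rose from a mean of 0.185 in LT to 1.18 in ST, while ENSSSCT00000084193 fell from 1.21 to 0.0744. The rise of the PIK3R3 total was thus fixed in part by the choice, and its p-value is a description only. DGKH, a diacylglycerol kinase, had an isoform at 1.14, 1.14 and 0 and a total of 1.30 to 1.64 in LT and 3.11 to 4.46 in ST (log2 fold change 1.37, adjusted p = 0.0432). LIMD2, a LIM domain protein with 1 annotated transcript, was listed at 0 in LT and at 0.298, 0.357 and 0.781 in ST. In ACTN2, the alpha-actinin of the Z-disc in all fibres, the ST isoform was at 0.138, 0.0421 and 0.275 only, while the total was 57.5 to 85.8 in LT and 171 to 340 in ST (log2 fold change 1.96, SE 0.31, adjusted p = 0.0399). The rise of ACTN2 thus lay in its other isoforms.

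The 3 genes lower in ST were ASPH, ZIC4 and FGG. ASPH, whose locus also encodes the calcium-release protein junctin, had an LT isoform at 1.99, 2.1 and 2.47, which is 2.91% of a total of 68.9 to 82.2 in LT, and the total was 25.9 to 39.1 in ST (log2 fold change -1.26, SE 0.20, adjusted p = 0.0399). ZIC4, a zinc finger transcription factor, had 82.7% of its LT total in an isoform at 0.658, 0.717 and 0.795. FGG, the gamma chain of fibrinogen, had LT isoforms at 0.187, 0.207 and 1.02 and at 0.182, 0.302 and 0.390, and a total of 0.369, 0.509 and 1.40 in LT against 0.00393, 0.0189 and 0 in ST.

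The sum of the other isoforms of a gene was not used by the rule, although its reads are shared with the isoform. It is the gene total less the chosen isoforms, so it is not independent of the choice either. It could be tested in 229 genes of ST isoforms and 139 of LT isoforms, out of 13972 genes, of which 93 (0.666%) were called, 0.487% higher and 0.179% lower in ST. In ST genes 4 were called, lower in ST for RPL11 (log2 fold change -5.24, SE 0.52, adjusted p = 0.0128), KDM4B and CCNT1 and higher for ACTN2 (1.96, adjusted p = 0.0418). In LT genes 3 were called, higher in ST for MYH14 and POLR3E and lower for ASPH (-1.22, adjusted p = 0.0472). The MYH14 sum passed the filter through ST alone, so it had to differ. In RPL11, KDM4B, CCNT1 and POLR3E, the chosen isoform held most of a total that was not called. What remained was thus lower in the muscle of the isoform largely by subtraction, and these p-values are descriptions only. The median log2 fold change was -0.016 for ST genes and 0.42 for LT genes, against 0.17 over all genes. The libraries did not overlap in 50 ST genes (29 higher and 21 lower in ST) and 41 LT genes (32 higher and 9 lower), against 26.5% of all genes, with 19.1% higher and 7.41% lower. With the pig as a block, 17 ST genes and 13 LT genes were called, against 4.43% of all. Without ST replicate 2 there were 46 calls in place of 7, against 5.44% of all genes. Without any of the other 5 libraries 2 to 6 sums were called, of which 1 or 2 were among the 7. RPL11 was called under 12 of the 16 settings tried, KDM4B under 10 and the others except MYH14 under 7 or 8. For RPL11, KDM4B, CCNT1 and POLR3E these counts do not show stability. The MYH14 sum was called under all 16, but it had to differ, so this count is not comparable with the others. The sums leave out isoforms chosen in either direction, so that of TPD52 holds neither its LT isoform nor its ST isoforms. Among the genes with the next smallest p, this TPD52 sum fell (log2 fold change -1.71, adjusted p = 0.0680 and 0.0305 with the block). The sum for NFE2L3, a transcription factor of the CNC family, fell too (-2.05, 0.0626 and 0.0305), and the sum for HOXA10 rose (4.25, 0.0556 and 0.0265). Without ST replicate 2 their adjusted p was 0.0439 for TPD52, 0.0472 for NFE2L3 and 0.0452 for HOXA10.

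For 9 ST isoforms and 10 LT isoforms, the whole gene was listed at 0 in the other muscle. The ST genes were MYL10 and MYL4, which are myosin light chains, HOXA11 and HOXA13, LIMD2, SPACA1 and PLCZ1, which are sperm proteins, and 2 genes without a symbol. HOXA11 was at 0.903, 0.0229 and 1.62 and HOXA13 at 0.329, 0.0129 and 0.658, low in ST replicate 2 in both cases. MYL10 was at 2.42, 0.369 and 0. The highest of these reached 183 read-pair equivalents (HOXA11), while MYL4 and the 2 genes without a symbol stayed under 8 in their highest library.

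The LT genes at 0 in ST were APOC3, an apolipoprotein, TTR, the thyroxine carrier transthyretin, AHSG, the plasma protein fetuin-A, ORM1, an acute phase protein, PGA5, a pepsinogen of the stomach, UMOD, a kidney protein, NCBP2L, DBX1 and 2 genes without a symbol. APOC3 was at 0.253, 0.287 and 1.19, TTR at 0.140, 0.495 and 0.783 and AHSG at 0.164, 0.174 and 0.652, each highest in LT replicate 3. APOC3, TTR, AHSG, ORM1 and FGG are known as genes of the liver. A list of 24 genes of liver-made plasma proteins, drawn up after these values were seen, had 23 genes in the files, and 6 of these held 7 of the LT isoforms. Of the 23 genes, 13 were lower in every ST library than in every LT library and none was higher without overlap, 5 were at 0 in all of ST and 1 in all of LT. Of all genes, 26.6% did not overlap between the muscles and 7.42% did so with the lower values in ST. AMBP, AHSG, APOC3, TTR and FGG are among the 13 and hold an isoform chosen for 0 in ST. The count is thus partly fixed by the choice and is a description only. By limma, 1 of the 21 list genes tested was called, FGG, whose total passed the filter through LT alone and had to differ. ALB, albumin, was at 1.26, 1.16 and 6.18 in LT and at 0.275, 0.0555 and 0.159 in ST. The summed level lay between 32.9 and 71.8 in LT and between 35.3 and 59.1 in ST, since ITIH4 and APOA1 made up most of it in both muscles. The part of liver RNA in the LT isoforms of these genes was not tested.

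**Figure D4:**
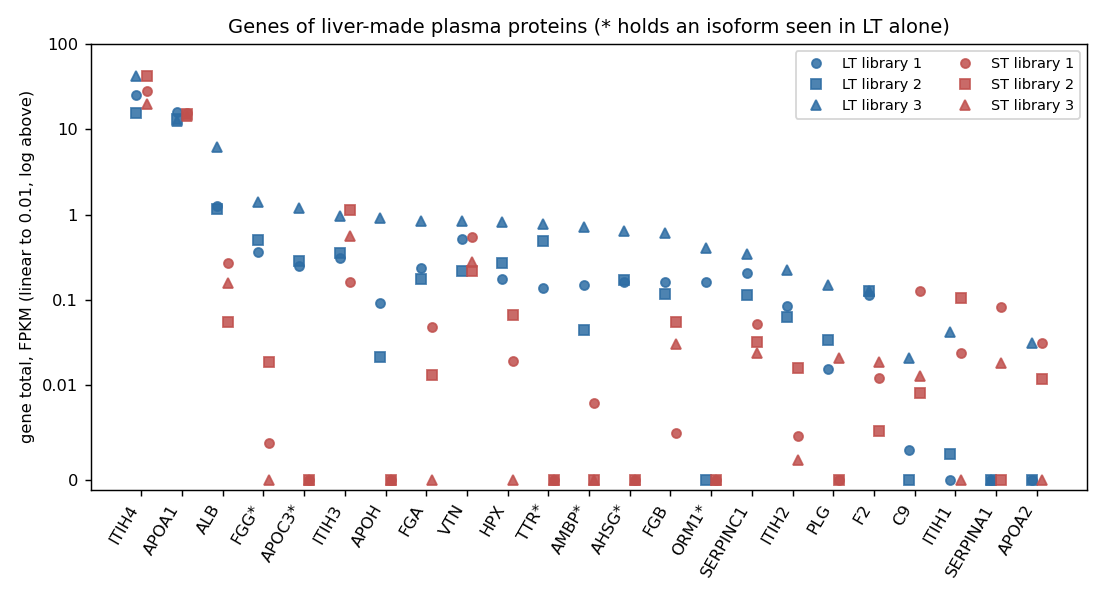
Gene totals of 23 genes of liver-made plasma proteins by library, in FPKM on an axis that is linear up to 0.01 and logarithmic above, with LT in blue, ST in red and a star for genes that hold an isoform seen in LT alone. Albumin and most genes under it lay higher in LT than in ST, with LT replicate 3 at the top (6.18 for ALB, 1.19 for APOC3 and 1.40 for FGG), while ITIH4 and APOA1 overlapped.

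For the lists by function, the shares are to be read against 0.862% of all expressed annotated mRNAs for ST isoforms and 0.531% for LT isoforms (1.39% together), and the called totals against 0.543% of all genes higher and 0.172% lower in ST. Sarcomere and Z-disc genes held 3 ST and 4 LT isoforms among 235 expressed transcripts (2.98%), with a median share of the gene of 0.802%. Besides those of ACTN2, ACTN3 and LDB3, an isoform of TNNT3, the troponin T of fast fibres, was at 6.17, 0.296 and 4.36 in ST, which is 1.10% of the gene. In this list 4 of 63 gene totals were called, all higher in ST. Calcium-handling genes held 1 ST isoform, of BIN1 (0.424% of the gene), and 1 LT isoform, of ASPH, among 125 transcripts, and 1 of 36 totals was called, lower in ST.

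Among genes of metabolism, glycolysis and glycogen enzymes held 2 ST isoforms, of PFKP and PFKFB2, and 1 LT isoform, of PHKB, among 123 transcripts (2.44%). None of their 36 totals was called by limma. An unadjusted p was under 0.05 in 22 of them, given with no share over all genes, so the count cannot be read as an excess. The PFKFB2 total had a limma adjusted p of 0.0941 (0.0384 with the pig as a block and 0.0170 without ST replicate 2). The only isoform of the respiratory chain among 129 transcripts was that of SDHA. Lipid genes held 2 ST isoforms among 168, of LPIN1 and MLXIPL, and 2 of 66 totals were called, both higher in ST. Solute carriers held 8 ST and 3 LT isoforms among 491 transcripts (1.63% and 0.611%), and 3 of 247 totals were called higher and 1 lower in ST. The one with the largest share in this group was that of the peroxisomal carrier SLC25A17, at 1.41, 0.863 and 1.74, which is 70.9% of the gene, and the SLC25A17 total was 0.569 to 0.905 in LT and 1.67 to 2.51 in ST (log2 fold change 1.26, SE 0.27, adjusted p = 0.0685, and 0.0299 with the block).

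Ubiquitin and proteasome genes held 8 ST and 4 LT isoforms among 614 transcripts, with a median share of 10.7%. None of their 286 totals was called by limma (43 had an unadjusted p under 0.05, again with no share over all genes). Small GTPases and their regulators held 5 ST isoforms and 1 LT isoform among 490, of which RAB11A, which recycles endosomes, was at 15.3% of its gene and TBC1D1, a regulator of glucose transporter traffic, at 12.1%. The TBC1D1 total was 2.97 to 3.50 in LT and 5.23 to 16.7 in ST (log2 fold change 1.46, adjusted p = 0.0961, 0.0387 with the block and 0.0192 without ST replicate 2). Zinc finger genes held 1 ST and 2 LT isoforms among 632 transcripts, and splicing factors and other RNA-binding proteins held a single one among 400, that of LUC7L3 in LT at 6.99% of its gene. The list of kinesins, dyneins, dynactins and tubulins held 3 ST isoforms among 164, led by DCTN2, and the collagen and matrix list 3 ST and 2 LT isoforms among 224 (2.23%), where 2 of 112 totals were called, both higher in ST.

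The remaining lists held few. Cytosolic ribosomal proteins had the RPL11 isoform alone among 161 transcripts, translation factors 1 ST and 2 LT isoforms among 143, and the mitochondrial ribosome and import list 1 LT isoform, of TOMM34, among 163. Of the lists for endothelial, smooth muscle, adipocyte, nerve, erythroid and skeletal muscle markers, none held an isoform of either kind, and the immune list held 1 ST isoform, at 2.66% of its gene, among 29 transcripts.

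Among the unannotated and annotated lncRNAs, 202 were seen in ST and 154 in LT by the same rule. Of the ST isoforms, 7 (2.80%) overlapped such an ST lncRNA, against 0.914% of all expressed annotated mRNAs, and of the LT isoforms 0 of 154 overlapped such an LT lncRNA, against 0.714%. All 7 lay on the opposite strand, over RNF125, GPAT3, MINK1, DGKH, RPL11, GTF2IRD1 and SLC25A17. Except for LNC_009470 over RPL11, their FPKM did not exceed 0.378 in any library. The isoforms came from all autosomes and the X chromosome, with 40 on chromosome 6, 37 on chromosome 14 and 35 on chromosome 1, where 1.34%, 1.95% and 1.33% of the expressed annotated mRNAs were among them.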

How the data were processed

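Reads were filtered by the authors (SOAPnuke), aligned with HISAT2 to the Sus scrofa 11.1 genome and assembled into transcripts (StringTie), per the study's methods and the labels. They deposited FPKM per transcript and library with exon number and length. FPKM are not counts, so limma 3.58.1 (R 4.3.3) was fitted on log2(FPKM + 0.1) with a variance trend, for features with FPKM above 0.1 in at least 1 library, with Benjamini-Hochberg adjustment over all features and a call at an adjusted p below 0.05 with a change of more than 1 on the log2 scale. Gene totals were summed over all transcripts of a gene identifier. The fits were tested on simulated data. All further steps and the figures used Python 3.11.15 (numpy 2.4.6, pandas 2.3.3, matplotlib 3.10.9).

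The LT and ST samples of a number came from the same pig per the study's methods and the sample titles. Their deviations from the muscle means correlated at 0.323, 0.305 and 0.329, against -0.225 to -0.123 between pigs, so the numbers pair the samples. The main fit left this pairing out, and a fit with the pig as a block was an alternative. With the block, 45 gene totals of the chosen isoforms were called in place of 9, and 706 in place of 100 over all genes. A total not called in the main fit is thus not shown to be unchanged.

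The isoforms, gene lists and tests were chosen with earlier results of these data known. Named were the 10 highest isoforms per direction, the 5 with the largest share per direction in genes above 1 FPKM in both muscles, the 10 genes with isoforms of both directions and the highest values, every gene with a called total, the 5 per direction with the smallest p for the other isoforms, up to 4 isoforms per functional list, and those nearest the threshold. Genes whose whole total was at 0 in one muscle, the liver list and the overlapping lncRNAs were named after their values were seen. Symbols came from the identifiers, except that 11 isoforms were named by position (reciprocal overlap of at least 0.7 with a RefSeq gene), among them LDB3, CREM, HOXA13 and ORM1, and 19 had none. Depth was estimated from FPKM times length in genes with 1 transcript, which covers counting precision only. Sequences were not used here.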

Additional observations from a re-analysis of the deposited data

How the results depend on the processing

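The number of isoforms seen in one muscle depends on the threshold more than on any test. With FPKM above 0 in at least 2 libraries there were 882 in ST and 607 in LT, with FPKM above 1 there were 75 and 46, with all 3 libraries required 56 and 35, and with 0.1 or less taken as not seen 815 and 577. Leaving out 1 library gave 113 to 474 in ST and 73 to 387 in LT. The median share of the gene total was 15.4% to 17.6% in ST and 19.5% to 21.3% in LT when 1 library of the muscle was left out. The ratio of summed FPKM gave 17.4% and 18.7%, against main values of 18.5% and 19.7%. Both differed by less than the SD of the per-library medians (1.56 and 1.18 percentage points).

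Against 9 gene totals called, there were 5 with a pseudocount of 1, 2 with no filter, 45 with the replicate block, 3 with quantile normalization, 26 with nuclear rescaling (FPKM rescaled to nuclear transcripts), 3 without a variance trend and from 2 to 54 when 1 library was left out. Against 7 sums of the other isoforms called, there were 1 with no filter, 29 with the replicate block, 3 with quantile normalization, 18 with nuclear rescaling, 3 without a variance trend and from 2 to 46 when 1 library was left out. Over all genes, 100 totals and 93 sums were called, with 75 and 82 at a pseudocount of 1, 11 and 10 with no filter, 706 and 619 with the block, 50 and 45 with quantile normalization, 363 and 328 with nuclear rescaling, 26 and 26 without a variance trend, 785 and 755 without ST replicate 2, and 11 to 17 totals and 16 to 21 sums without any other library. The block kept all 9 and all 7 calls. With a pseudocount of 0.01 there were 12 and 7 calls (110 and 89 over all genes) and with a filter above 1 FPKM 7 and 8 (144 and 144). Unannotated mRNA carries other gene identifiers, so annotated transcripts alone gave the same values. The causes were not tested. Quantile normalization moved the median of all gene totals from 0.17 to -0.0070 and nuclear rescaling moved it to 0.27 (log2).

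Of the 9 totals, 4 had to differ by the choice of isoforms (LIMD2, GAL3ST1, ZIC4 and FGG), and their calls under any setting show no stability. The same holds for the MYH14 sum, which passed the filter through ST alone. The PIK3R3 total and the sums of RPL11, KDM4B, CCNT1 and POLR3E were fixed in part by the choice. Their calls over the settings show no stability either. No called total or sum changed direction under the alternatives run. For values given with the block, the adjusted p over all settings was 0.0355 to 0.309 for the total of CREM, 0.00414 to 0.203 for DNAJB9, 0.0306 to 0.189 for H2AZ2, 0.017 to 0.258 for PFKFB2, 0.0299 to 0.197 for SLC25A17 and 0.0192 to 0.266 for TBC1D1, and for the sums of the other isoforms 0.0305 to 0.219 for TPD52, 0.0305 to 0.163 for NFE2L3 and 0.0231 to 0.184 for HOXA10. Among uncalled totals near 0, quantile normalization turned the log2 fold change to -0.040 in DCTN2, -0.057 in MYH14, -0.11 in CLCC1, -0.067 in DCAF11 and -0.20 in NARS2, and nuclear rescaling turned it to 0.090 in PREP, 0.089 in SNX8 and 0.087 in ACER3. Leaving out 1 library gave log2 fold changes of the total from -0.29 to 0.19 in ACER3, from -0.035 to 0.080 in CLCC1, from -0.095 to 0.42 in DCAF11, from -0.13 to 0.11 in DCTN2, from -0.41 to 0.049 in LDB3, from -0.051 to 0.32 in MYH14, from -0.020 to 0.047 in NARS2, from -0.11 to 0.10 in PREP, from -0.61 to 0.098 in ROBO1, from -0.18 to 0.17 in SNX8.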
